A study of Mus musculus with 8 samples.

Results

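The genes described here encode the subunits of the constitutive proteasome and of its activators PA28 and PA200. They were chosen by symbol, as names that begin with Psma, Psmb, Psmc or Psmd and a number or with Psme1 to Psme4, without the inducible subunits Psmb8, Psmb9 and Psmb10 and without pseudogenes. A symbol also needed at least 50 UMIs (unique molecular identifiers, counted transcripts) over the cells used. Of 43 symbols matched, 42 reached that minimum, out of 32249 genes listed in the 8 deposited tables. Psmb11, which encodes a beta subunit of the thymus, had 1 UMI and was left out, and Psma8, an alpha subunit known from the testis, had the fewest of those kept with 211 UMIs. By role the 42 were 8 core alpha subunits, 7 core beta subunits, 6 ATPases of the base, 14 other genes named for the base and lid, the pair Psme1 and Psme2, then Psme3 and Psme4. The remaining 3 (Psmc3ip, Psme3ip1 and Psme2b) matched the pattern by name but are not named as subunits, and are described apart. Of the 39 with subunit names, Psmd5, Psmd9 and Psmd10 encode chaperones of base assembly that leave the finished particle, and they are counted with the 14 unless stated otherwise.

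The 20S core proteasome is a barrel of stacked rings of alpha and beta subunits, and 3 of the beta subunits, encoded by Psmb5, Psmb6 and Psmb7, cut the protein chain. The 19S cap binds ubiquitin-tagged proteins, removes the tag and feeds the chain into the barrel by means of a ring of ATPases. PA28 alpha and beta, encoded by Psme1 and Psme2, form another cap that opens the barrel without ubiquitin or ATP and is best known for its induction by interferon, together with the exchange of the cutting subunits for Psmb8, Psmb9 and Psmb10. In macrophages, which present peptides on MHC class I, that exchange is part of the interferon response.

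Bone marrow was taken from mice of the strain C57Bl/6J, given in the labels as males of 10 weeks, and its cells were grown for 3 days with M-CSF, the growth factor that turns marrow cells into macrophages. Treatment then lasted 24 h, with CYR61, a secreted matricellular protein, at 4 µg/mL for 4 libraries and without it for the other 4. All 8 were captured on the HIVE platform, in which cells settle into an array of small wells with barcoded beads, and each library is a single sample of the series. The labels do not say whether the replicates of a group came from separate mice or cultures, so the p-values given here measure the spread between libraries.

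Libraries held 1379637 to 16318946 UMIs, and counts were summed over 294 to 3604 cells per library. Of 9196 distinct cell barcodes within a date stamp, 2216 were kept as a cell in more than 1 library, so each was used only in the library where it had most UMIs. In control replicate 2 this set aside 76.1% of the UMIs of kept cells, against 0.891% to 27.4% elsewhere. Libraries also went against the label of male mice. Xist was at 1152 to 1249 CPM (UMI counts divided by the library's total and rescaled) in control replicates 2 and 3 and CYR61 replicates 1 and 2, where Ddx3y, Eif2s3y, Kdm5d and Uty together had 0.144 to 8.31 CPM. In control replicates 1 and 4 and CYR61 replicates 3 and 4 Xist was at 0 to 1.16 CPM and these Y-linked genes at 323.1 to 398.6. These are called Xist libraries and Y libraries below, 2 of each in either group. Replicates 1 and 2 of each group carry the earlier and 3 and 4 the later date stamp in the deposited files' names. Within the CYR61 group the Xist libraries are thus those of the earlier stamp and the Y libraries those of the later, so split and stamp cannot be told apart there, while each control split holds 1 library of either stamp. All 7 macrophage markers were detected, with a sum of 7599 to 12378 CPM in the control group and 10022 to 14985 CPM in the CYR61 group. The 7 neutrophil markers summed to 395.2 to 1206 CPM and 274.4 to 2638 CPM, highest in CYR61 replicate 3, where 9.22% of cells carried them against 0.609% to 1.69% in the other libraries. The 3 platelet markers summed to 369.1 to 874.4 CPM in the control group and to 585.8, 631.7, 1359 and 1179 CPM in CYR61 replicates 1 to 4. The part of these cells in the results below was not tested, except where values without neutrophil-marker cells are given. All 36 genes of an interferon response list were detected, and they summed to 721.9 to 944.2 CPM in the control group and to 4210 to 8581 CPM in the CYR61 group. Where a summed level differs, a change in the share of a cell type and a change in RNA per cell cannot be told apart.

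No constitutive subunit of the core or the cap passed the test between CYR61 and control libraries, and the only genes of the set whose groups did not overlap were those of PA28 alpha and beta. Of the 42 genes, 0 passed edgeR's quasi-likelihood test at a Benjamini-Hochberg adjusted p under 0.05, where 1.16% of the 10422 genes tested did (117 higher, or 1.12%, and 4 lower, or 0.0384%). At an unadjusted p under 0.05 there were 2 higher (Psme1 and Psme2) and 1 lower (Psma3), or 7.14% of the 42 against 6.2% of all genes tested. DESeq2 also called 0 of the 42, where it called 1.76% of all genes tested. The median log2 fold change of the 42 was 0.05, and that of all genes tested was -0.02. Above 0 lay 24 of the 42 (57.1%), against 47.3% of all genes tested. Together the 39 genes with subunit names made up 0.407% to 0.527% of the UMIs of a library, with the lowest share in control replicate 4 and the highest in CYR61 replicate 3.

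**Figure D1:**
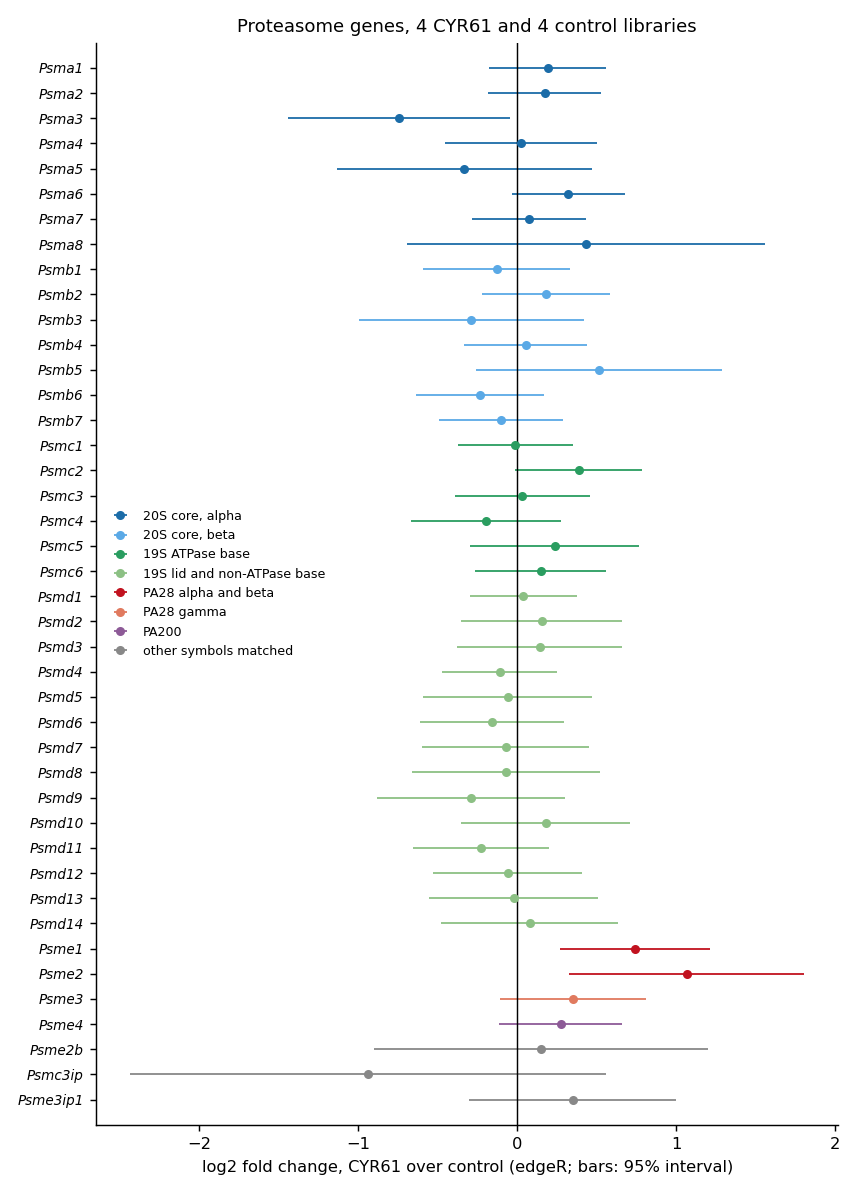
The log2 fold change of each of the 42 genes, CYR61 over control, from edgeR with 4 libraries a group; points are estimates, bars are 95% intervals and colours mark the role. The intervals of Psme1 and Psme2 lie above 0, that of Psma3 lies below it, and those of the other genes cross it.

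The alpha rings, whose outer face forms the gate of the barrel and receives the caps, had a summed level of 983.3, 1237, 1239 and 889.4 CPM without CYR61 (control replicates 1 to 4, the order used throughout) and of 1109, 1113, 1266 and 1142 CPM with it (CYR61 replicates 1 to 4). The groups overlapped, with means of 1087 ± 178 and 1158 ± 74.1 CPM (SD, n = 4). Psma7, a ring subunit used here as an example of an abundant transcript, had 302.0, 377.0, 341.8 and 269.2 CPM without CYR61 and 297.6, 304.2, 389.9 and 338.8 CPM with it. Its log2 fold change was 0.08 (SE 0.17). Psma6 was at 167.3, 235.2, 203.0 and 192.4 CPM without CYR61 and at 238.5, 256.4, 263.7 and 215.3 CPM with it. A single control library, replicate 2, lay within the CYR61 range, and the log2 fold change of 0.32 (SE 0.16) did not pass (edgeR adjusted p = 0.853). The other alpha genes apart from Psma3 had log2 fold changes from -0.33 (Psma5) to 0.43 (Psma8), which rested on as few as 16 and 4 UMIs in a library.

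Psma3, another alpha subunit, was at 27.4, 45.0, 70.0 and 31.9 CPM without CYR61 and 23.1, 20.6, 28.7 and 29.1 CPM with it. Control replicate 3 stood highest, and control replicate 1 lay within the range of the CYR61 libraries. The log2 fold change was -0.74 (SE 0.32, edgeR adjusted p = 0.763). It was -0.38 without control replicate 3, -1.28 in the Xist libraries alone (adjusted p = 0.0694) and 0.00 in the Y libraries alone. Each of these estimates within a split rests on 2 libraries a group.

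The beta rings, which hold the cutting sites, summed to 813.0, 846.5, 693.2 and 768.8 CPM without CYR61 and 672.4, 619.2, 863.3 and 788.3 CPM with it, with means of 780.4 ± 66.3 and 735.8 ± 111 CPM. The lowest values were those of CYR61 replicates 1 and 2, and the highest that of CYR61 replicate 3, so the CYR61 group spanned the control group. Psmb6, the caspase-like subunit, had 222.6, 189.4, 185.2 and 236.3 CPM without CYR61 and 148.6, 144.3, 189.7 and 215.3 CPM with it, a log2 fold change of -0.23 (SE 0.19). Psmb7, the trypsin-like subunit, had 96.3, 146.0, 110.4 and 99.7 CPM against 102.6, 102.2, 114.9 and 91.7 CPM, a log2 fold change of -0.10 (SE 0.18). Neither passed the test, and in both genes the groups overlapped.

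Psmb5, the chymotrypsin-like subunit and the main target of proteasome inhibitor drugs, was the most uneven of the cutting subunits. It had 44.2, 47.5, 11.9 and 17.0 CPM without CYR61 and 39.2, 39.8, 50.5 and 43.9 CPM with it. The 2 control libraries of the later date stamp, replicates 3 and 4, stood below every other library, and the lowest rested on 10 UMIs. Over all libraries the log2 fold change was 0.52 (SE 0.36, edgeR adjusted p = 0.961). It was -0.09 in the earlier stamp alone and 1.66 in the later stamp alone, with an adjusted p of 0.311. The difference of the CYR61 effect between the stamps was 1.79 (SE 0.46) on the log2 scale, with an unadjusted p of 0.0027 and an adjusted p of 0.392 from edgeR's interaction test. That test called 0 of 10422 genes (0%), while 10.1% had an unadjusted p under 0.05.

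The 6 ATPases, which unfold the chain and thread it into the barrel, summed to 771.4, 925.5, 886.6 and 670.0 CPM without CYR61 and 900.5, 909.9, 795.4 and 792.8 CPM with it. The means of 813.4 ± 116 and 849.7 ± 64.3 CPM differed by less than the spread within either group. Psmc2 had 102.1, 126.5, 111.6 and 71.8 CPM without CYR61 and 137.3, 138.3, 129.7 and 119.5 CPM with it. Its log2 fold change of 0.39 (SE 0.18) did not pass (edgeR adjusted p = 0.824), and control replicate 2 lay within the CYR61 range. Psmc1 was at 131.5, 154.5, 138.9 and 114.7 CPM against 137.5, 148.5, 122.7 and 112.6 CPM, a log2 fold change of -0.01 (SE 0.17).

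The lid and the non-ATPase part of the base recognise ubiquitin and remove it. Their 14 genes summed to 1604, 1695, 1573 and 1370 CPM without CYR61 and 1432, 1432, 1711 and 1400 CPM with it. CYR61 replicate 3 stood above the other CYR61 libraries and just above the highest control library. Without the 3 chaperones the means were 1442 ± 135 CPM without CYR61 and 1378 ± 134 CPM with it, and the groups overlapped likewise. Psmd14, the deubiquitinase of the lid, had 103.9, 166.4, 111.6 and 61.8 CPM without CYR61 and 106.2, 109.2, 148.0 and 93.3 CPM with it, a log2 fold change of 0.08 (SE 0.26). Psmd11, a lid scaffold subunit linked to proteasome assembly, had 76.5, 93.4, 57.0 and 60.8 CPM against 61.3, 56.3, 54.8 and 67.4 CPM, a log2 fold change of -0.23 (SE 0.20). Psmd9, a chaperone of base assembly that carries a subunit name, had 21.8, 39.1, 28.5 and 26.9 CPM against 21.4, 20.7, 27.0 and 23.8 CPM, a log2 fold change of -0.29 (SE 0.27). In all 3 genes the groups overlapped, and all 14 genes of this class had a 95% interval within 1 log2 unit of 0.

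Of the 37 genes with subunit names other than PA28 alpha and beta, 33 had such an interval within 1 log2 unit of 0, where 5445 of the 10422 genes tested did. For the remaining 4 (Psma3, Psma5, Psma8 and Psmb5) the interval reached beyond a 2-fold difference. Such counts depend on the width of the intervals, and the median SE was 0.213 for the 37 genes against 0.322 for all genes tested. Summed over 15 genes the 20S core was at 1868 ± 182 CPM without CYR61 and 1893 ± 179 CPM with it, a ratio of 1.01. Summed over 20 genes the 19S cap was at 2374 ± 245 CPM and 2343 ± 128 CPM, a ratio of 0.987, and over the 17 without the chaperones the ratio was 0.988.

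**Figure D2:**
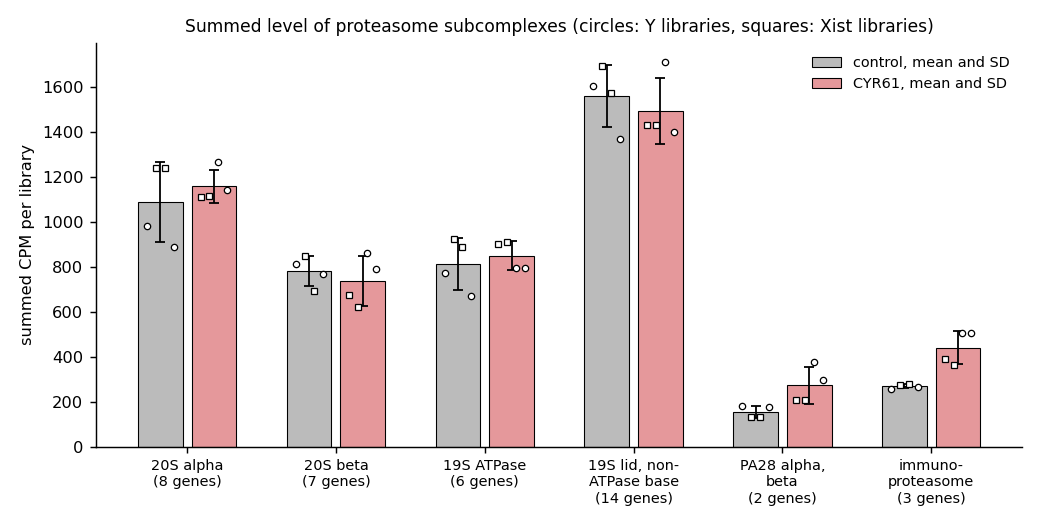
Summed CPM of the genes of each subcomplex in each library (y axis, from 0); bars are means of 4 libraries, error bars are SD, circles are Y libraries and squares are Xist libraries. Control and CYR61 points overlap for the rings, the ATPases and the lid, while the PA28 pair (154.9 and 272.4 CPM) and the immunoproteasome genes (269.5 and 440.6 CPM) show no overlap between groups.

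The genes of PA28 alpha and beta lie close to each other on chromosome 14 (GRCm38, GENCODE M21). Psme1 spans chr14:55578123-55581529 on the plus strand and Psme2 spans chr14:55587441-55591113 on the minus strand, both protein-coding. Their start regions are printed here because these were the genes of the set whose groups did not overlap, beside the start regions of Psmb5, which carries the core of the antioxidant response element, and of Psmd12, which carries the ETS motif counted further on. Each is 300 bases long, from 250 bases before to 50 bases after a RefSeq start site, in GRCm38.p6. Psme1 is at chr14:55578244-55578543 on the plus strand, with the match to the interferon-stimulated response element in capitals. Psme2 is at chr14:55591052-55591351 on the minus strand, with no match to it. Psmb5 is at chr14:54617946-54618245 on the minus strand, with the antioxidant response element core in capitals. Psmd12 is at chr11:107479278-107479577 on the plus strand, with the ETS motif in capitals.
Psme1: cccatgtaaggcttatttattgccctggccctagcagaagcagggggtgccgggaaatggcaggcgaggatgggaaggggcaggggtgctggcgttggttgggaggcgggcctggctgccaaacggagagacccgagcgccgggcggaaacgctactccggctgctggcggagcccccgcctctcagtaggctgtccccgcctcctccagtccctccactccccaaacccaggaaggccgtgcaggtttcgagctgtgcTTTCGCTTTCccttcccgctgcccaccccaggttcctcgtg
Psme2: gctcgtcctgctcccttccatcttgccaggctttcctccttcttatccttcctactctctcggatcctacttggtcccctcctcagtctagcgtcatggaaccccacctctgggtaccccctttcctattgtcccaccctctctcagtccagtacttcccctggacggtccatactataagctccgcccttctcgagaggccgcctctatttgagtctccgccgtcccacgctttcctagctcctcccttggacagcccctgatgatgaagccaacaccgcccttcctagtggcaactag
Psmb5: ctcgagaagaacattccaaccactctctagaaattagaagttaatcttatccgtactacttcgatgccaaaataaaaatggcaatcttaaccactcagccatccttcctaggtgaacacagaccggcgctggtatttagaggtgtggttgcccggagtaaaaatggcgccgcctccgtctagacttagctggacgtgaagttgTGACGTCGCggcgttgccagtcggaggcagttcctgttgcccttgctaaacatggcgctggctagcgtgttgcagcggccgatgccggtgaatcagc
Psmd12: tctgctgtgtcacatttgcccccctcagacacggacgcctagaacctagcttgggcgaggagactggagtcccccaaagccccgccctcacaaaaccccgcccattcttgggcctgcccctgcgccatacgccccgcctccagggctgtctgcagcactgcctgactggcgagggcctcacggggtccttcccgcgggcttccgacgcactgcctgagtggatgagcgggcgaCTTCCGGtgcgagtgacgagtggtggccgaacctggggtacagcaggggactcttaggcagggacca

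Psme1 was at 133.9, 100.2, 112.8 and 132.6 CPM without CYR61 and at 153.2, 155.2, 258.5 and 224.9 CPM with it. All 4 CYR61 values exceeded all 4 control values, and CYR61 replicates 3 and 4, both Y libraries of the later stamp and the ones highest in platelet markers, stood highest. The means were 119.9 ± 16.3 and 197.9 ± 52.3 CPM (SD, n = 4), and the log2 fold change of 0.74 (SE 0.22) had an unadjusted p of 0.00477 and an adjusted p of 0.259 in edgeR. Psme2 was at 47.1, 31.4, 17.8 and 43.9 CPM without CYR61 and at 53.0, 52.8, 119.2 and 72.7 CPM with it. Its groups did not overlap either, with control replicate 3 lowest and CYR61 replicate 3 highest. The means were 35.1 ± 13.4 and 74.4 ± 31.3 CPM, and the log2 fold change was 1.07 (SE 0.34, unadjusted p = 0.00848, edgeR adjusted p = 0.368). Groups that did not overlap were thus found in 2 of 42 genes with CYR61 higher (4.76%) and in 0 with CYR61 lower, where 2.87% and 2.25% of all genes tested had them.

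Psme1 and Psme2 were higher in Y than in Xist libraries in both groups, and with that split as a term of the model both rose with CYR61. The log2 fold changes were then 0.73 (edgeR adjusted p = 0.0087) and 1.10 (adjusted p = 0.0106), and 1.91% of all genes tested were called higher. With split and date stamp both as terms, a fit added after the data had been seen, they were 0.72 (edgeR adjusted p = 0.00571) and 1.12 (adjusted p = 0.00998), and 2.19% of all genes were called higher. Within the Xist libraries alone the mean of the CYR61 libraries was 1.45 times that of the control libraries for Psme1 and 2.15 times for Psme2. Within the Y libraries alone it was 1.81 and 2.11 times. In the earlier stamp alone the log2 fold changes were 0.50 for both genes, and in the later stamp alone 0.94 and 1.58, none called. Without CYR61 replicate 3, the library with most neutrophil-marker cells, they were 0.65 and 0.82, and without neutrophil-marker cells in any library 0.79 and 1.10. Without the rule on shared barcodes they were 0.51 and 0.51 (edgeR adjusted p = 0.9999 for both), and in that fit 0 of 11148 genes were called.

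Psme2b, an intronless copy of Psme2 on chromosome 11, had 12.5, 17.8, 14.2 and 20.9 CPM without CYR61 and 10.2, 7.75, 34.8 and 21.4 CPM with it. Reads of the copies may have been split in counting. Summed with its copy, Psme2 was at 59.7, 49.2, 32.0 and 64.8 CPM without CYR61 and 63.2, 60.5, 154.0 and 94.1 CPM with it. The sums overlapped, since control replicate 4 lay above CYR61 replicates 1 and 2. The gap between groups seen for Psme2 alone was therefore not present in the sum.

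The other activators had smaller differences. Psme3, which encodes the nuclear PA28 gamma, was at 47.4, 60.3, 46.3 and 33.9 CPM without CYR61 and 60.2, 64.4, 52.2 and 56.2 CPM with it, with a log2 fold change of 0.35 (SE 0.21) and an edgeR adjusted p of 0.921. Psme4, which encodes PA200, a large single-chain cap, was at 239.8, 216.5, 146.0 and 161.5 CPM against 219.0, 223.9, 201.0 and 259.1 CPM, with a log2 fold change of 0.27 (SE 0.18) and an edgeR adjusted p of 0.944. In both genes the control group spread more widely than the CYR61 group and overlapped it.

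The inducible subunits, which are not part of the set, had differences of similar size to those of the PA28 pair. Psmb8, which replaces Psmb5, was at 158.6, 205.5, 207.7 and 155.5 CPM without CYR61 and at 262.0, 260.7, 310.7 and 325.7 CPM with it. The groups did not overlap, and the log2 fold change was 0.71 (SE 0.17), with an adjusted p of 0.104 in edgeR and of 0.00617 in DESeq2. Psmb9, which replaces Psmb6, had a log2 fold change of 0.92 (SE 0.28, edgeR adjusted p = 0.333). Psmb10, which replaces Psmb7, had one of 0.73 (SE 0.26, edgeR adjusted p = 0.541). With a term for Y against Xist libraries all 3 rose, with edgeR adjusted p of 0.0149, 0.0322 and 0.0251.

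**Figure D3:**
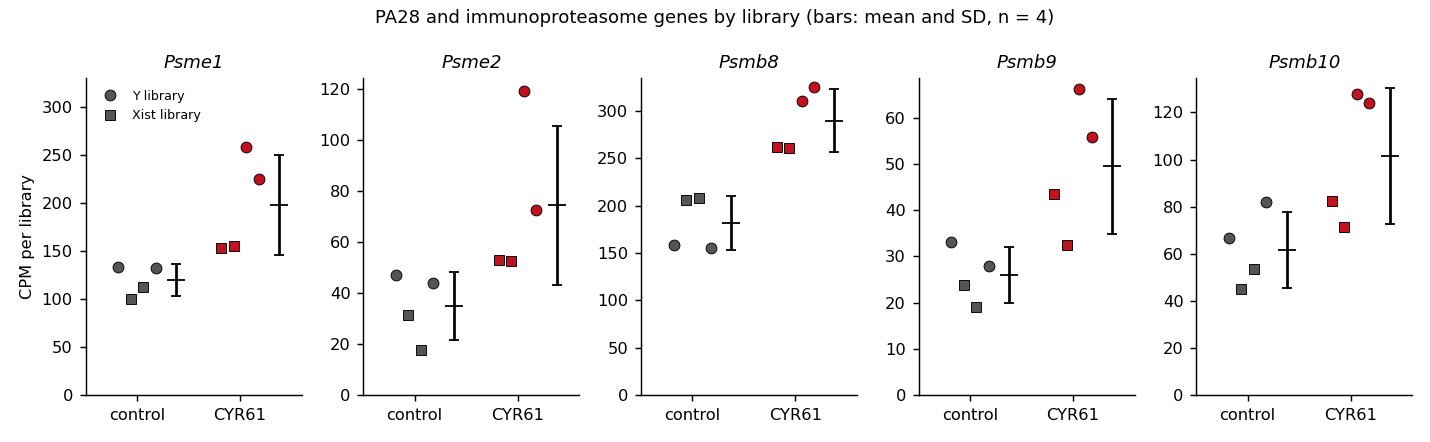
CPM of Psme1, Psme2, Psmb8, Psmb9 and Psmb10 in each library (y axes, from 0, differ between panels); circles are Y libraries, squares Xist libraries, and the bar beside each group is its mean and SD over 4 libraries. CYR61 points lie above all control points for Psme1, Psme2 and Psmb8, and the groups overlap for Psmb9 and Psmb10.

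Set against the constitutive subunit it replaces, Psmb9 alone separated the groups. Its ratio to Psmb6 was 0.149, 0.126, 0.103 and 0.118 without CYR61 and 0.293, 0.225, 0.349 and 0.260 with it, so the groups did not overlap. These ratios of UMIs are not corrected for transcript length, so only their change between libraries can be read. The ratio of Psmb10 to Psmb7 was 0.308 to 0.820 in control and 0.697 to 1.35 in CYR61 libraries. That of Psmb8 to Psmb5 was 3.59 to 17.5 and 6.16 to 7.43, the highest value coming from control replicate 3, where Psmb5 was at its lowest. The last 2 ratios overlapped between groups.

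Among 28 tested genes that act on the proteasome or upstream of it, 0 were called, where 1.16% of all genes tested were. At an unadjusted p under 0.05 there were 3 higher (Psmb8, Psmb9 and Psmb10) and 1 lower (Psmg4, an assembly chaperone, log2 fold change -0.53, SE 0.24), or 14.3% of the list against 6.2% of all genes. Their median log2 fold change was 0.10. Pomp, which encodes the maturation protein of the core, had a log2 fold change of 0.07 (SE 0.19), and the 5 assembly genes, Pomp among them, had a median of -0.36. Nfe2l1, the transcription factor that raises subunit genes when the proteasome is inhibited, had 173.9 ± 48.5 CPM without CYR61 and 186.0 ± 16.0 CPM with it, a log2 fold change of 0.13 (SE 0.19). Nfe2l2, another listed regulator, was at 305, 321, 284 and 294 CPM without CYR61 and at 336, 340, 359 and 336 CPM with it. Its groups did not overlap, as in 2.87% of all genes tested with CYR61 higher. The log2 fold change of Nfe2l2 was 0.22 (SE 0.14, edgeR adjusted p = 0.943). Above 0 lay 17 of the 28 genes (60.7%), against 47.3% of all genes tested, and none of the 28 passed. These were 3 of 3 inducible subunits, 2 of 5 assembly genes and 6 of 6 factors that bind the proteasome. The rest were 3 of 10 ubiquitin and shuttle genes (30.0%) and 3 of 4 regulators of subunit genes. Among the assembly genes, Psmg1, Psmg2 and Psmg3 had as few as 2, 14 and 3 UMIs in a library.

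Within CYR61 libraries, no member passed the test between cells with a strong and cells with a weak interferon response. Cells of at least 1000 UMIs were ranked in each library by their share of UMIs from the interferon list, and the upper 1399 cells were compared with the lower 1399. Of the 42 genes 0 were called, against 2.43% of 9512 genes tested (183 higher, or 1.92%, and 48 lower, or 0.505%). The median log2 fold change of the 42 was 0.07, and that of all genes was -0.01. Above 0 lay 31 of the 42 (73.8%), against 47.4% of all genes tested. Median UMIs per cell were 1931 to 5334 in the upper and 1685 to 2874 in the lower cells of a library. Median mitochondrial shares were 4.088% to 9.995% in the upper and 3.859% to 11.445% in the lower cells. The part of depth and mitochondrial share in these values was not tested.

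Psme1 had 170.7, 175.7, 197.0 and 261.4 CPM in the upper cells of CYR61 replicates 1 to 4 and 149.3, 136.5, 283.7 and 211.0 CPM in the lower cells. It was higher in the upper cells of 3 of 4 libraries and lower in replicate 3, with a log2 fold change of 0.20 (SE 0.10, edgeR adjusted p = 0.679). Without replicate 3, whose classes held 64 cells each, it was 0.28 and passed (edgeR adjusted p = 0.0264). Psme2 had 52.8, 53.9, 119.3 and 76.1 CPM in upper and 46.7, 46.2, 115.0 and 75.7 CPM in lower cells, a log2 fold change of 0.13 (SE 0.13, edgeR adjusted p = 0.94). Psmb8 rose in the upper cells of all 4 libraries, with a log2 fold change of 0.36 (SE 0.08) and an edgeR adjusted p of 0.0175, from 234.9, 234.3, 237.7 and 283.7 CPM to 287.2, 287.8, 344.1 and 404.6 CPM. DESeq2 gave it an adjusted p of 0.0687, and it did not pass without replicate 1, 2 or 4 (edgeR adjusted p = 0.179 to 0.23). Psmb9 and Psmb10 had log2 fold changes of 0.52 (edgeR adjusted p = 0.147) and 0.22 (adjusted p = 0.574).

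No subunit gene passed the test between mitotic and other cells, though some did under alternatives given below. Mitotic-marker cells had at least 3 UMIs and 0.1% of their UMIs from a list of 16 mitotic genes. Only 4 libraries, replicates 1 and 2 of each group, had at least 20 of them, 602 cells in all against 1834 cells with none of these transcripts. Median UMIs per cell were 1917 to 4783 in the mitotic and 1317 to 2583 in the other cells of a library, and median mitochondrial shares 4.79% to 10.8% and 6.9% to 13.5%, differences whose part in these values was not tested. Of the 39 members tested 1 was called, where 11.6% of 8355 genes tested were (676 higher, or 8.09%, and 297 lower, or 3.55%). That member was Psmc3ip, a partner of the meiotic and repair recombinases that shares its name with an ATPase it can bind, and 0 of the 37 genes with subunit names that were tested were called. Psmc3ip was at 10.0, 30.0, 37.9 and 29.1 CPM in mitotic cells of control replicates 1 and 2 and CYR61 replicates 1 and 2, and at 1.09, 17.7, 3.80 and 4.25 CPM in the other cells. It was higher in all 4 libraries, with a log2 fold change of 2.74 (SE 0.40, edgeR adjusted p = 9.18e-06). Between CYR61 and control libraries its log2 fold change was -0.94 (SE 0.69, edgeR adjusted p = 0.978), and -0.15 without control replicate 3, where it stood highest at 32.05 CPM.

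Among the subunits, 20 of 37 (54.05%) lay above 0, where 49.4% of all genes tested did. By class these were 6 of 6 ATPases (0.016 to 0.437), 4 of 6 alpha and 3 of 7 beta subunits. Of the lid and non-ATPase base 6 of 14 did, and of the PA28 alpha and beta pair 0 did. Psmc3 was at 321.3, 398.3, 251.4 and 266.1 CPM in mitotic and 177.1, 88.5, 199.3 and 219.5 CPM in other cells. Its log2 fold change was 0.44 (SE 0.15), with an edgeR adjusted p of 0.0576. Psmd8, a lid subunit, was lower in mitotic cells in all 4 libraries, with a log2 fold change of -0.37 (SE 0.13) and an edgeR adjusted p of 0.056. Neither passed. Outside the set, Uchl5, a deubiquitinase bound to the cap, rose in mitotic cells, with a log2 fold change of 0.85 (SE 0.19) and an edgeR adjusted p of 0.00225, and so did Psmg2, an assembly chaperone of the alpha ring (1.16, SE 0.33, edgeR adjusted p = 0.0175). Both were higher in 4 of 4 libraries. Uchl5 did not pass without CYR61 replicate 1 (edgeR adjusted p = 0.121), and Psmg2 did not without CYR61 replicate 1 or 2 (edgeR adjusted p = 0.352 and 0.326).

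**Figure D4:**
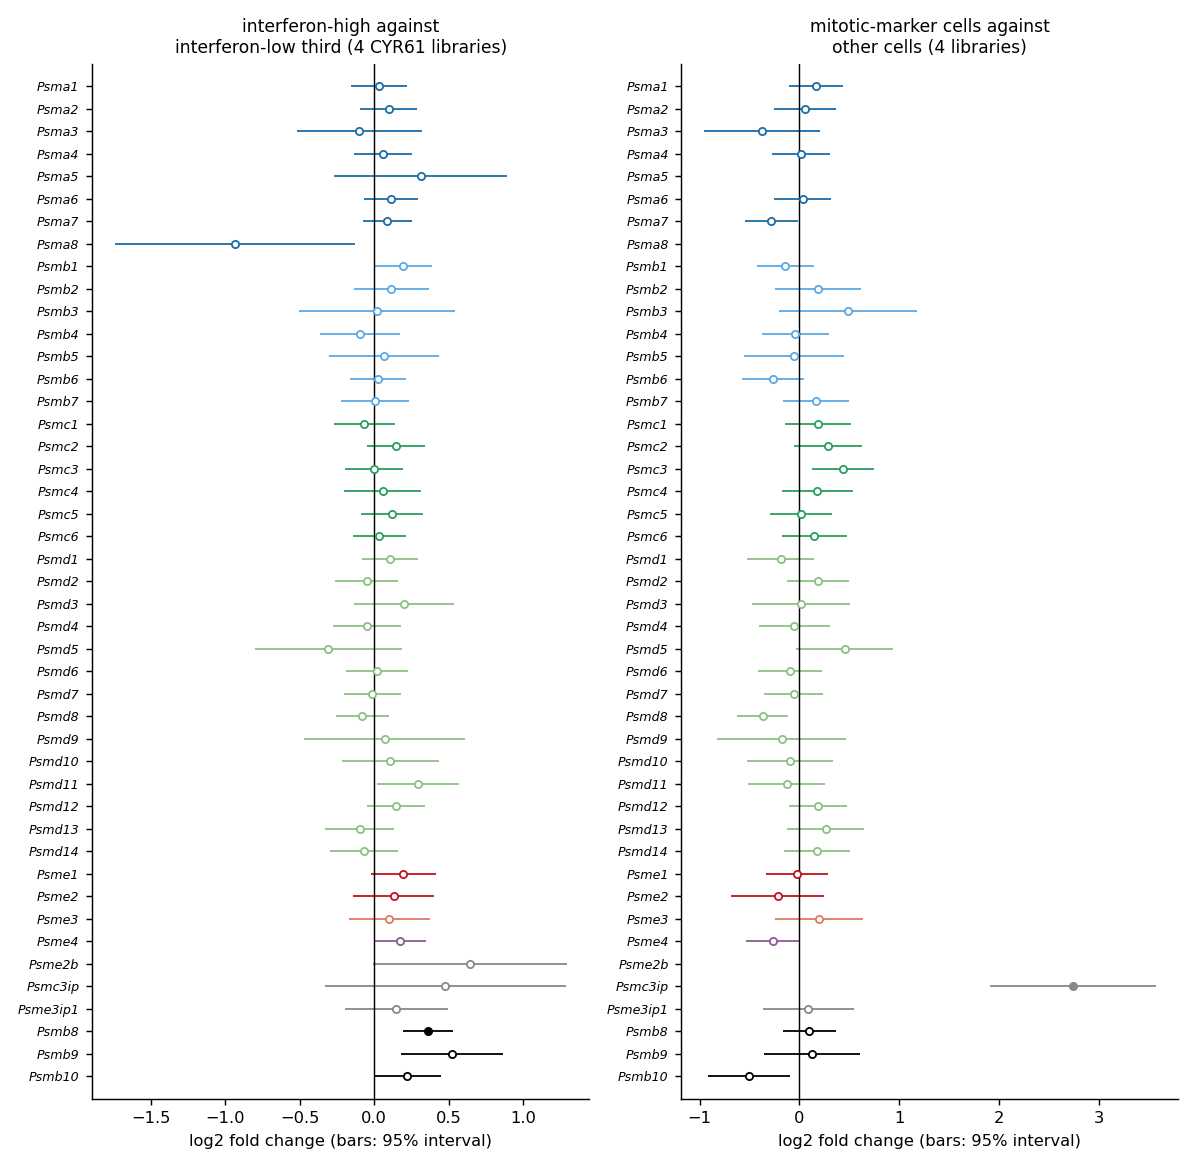
Log2 fold changes within libraries from edgeR, with 95% intervals as bars, for cells of high against low interferon share in 4 CYR61 libraries (left) and for mitotic-marker against other cells in 4 libraries (right); filled points passed an adjusted p of 0.05, and the 3 genes in black are the inducible subunits. Filled points are Psmb8 at 0.36 on the left and Psmc3ip at 2.74 on the right.

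The members were also compared between Y and Xist libraries, a comparison that was added after the data had been seen. With the group in the model, 7 of 42 were called (16.7%), a share near the 15.3% of all genes tested. Of these, 5 were higher in Y libraries, where 7.61% of all genes were, and 2 lower, where 7.72% were. Psmd8 was at 374.2, 384.9, 416.0 and 334.8 CPM in the Y libraries (control 1 and 4, CYR61 3 and 4) and at 277.7, 201.8, 215.1 and 196.5 CPM in the Xist libraries (control 2 and 3, CYR61 1 and 2). Every Y library lay above every Xist library, and the log2 difference was 0.78 (SE 0.13, edgeR adjusted p = 0.0015). Psme2 (0.86), Psme1 (0.51), Psmb1 (0.47) and Psmb6 (0.40) were also higher in Y libraries, with edgeR adjusted p of 0.0146, 0.0242, 0.0385 and 0.0453. In the same order, the 16 mitotic genes summed to 434.4, 499.5, 133.2 and 308.8 CPM in Y libraries. In Xist libraries they summed to 1567, 363.2, 885.4 and 997.4 CPM. The part of dividing cells in the differences between Y and Xist libraries was not tested.

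Psmd12, a scaffold of the lid, was at 125.4, 117.7, 121.8 and 104.6 CPM in the same Y libraries and at 176.6, 178.0, 153.3 and 176.6 CPM in the Xist libraries. Psmc5, an ATPase, was at 98.9, 60.8, 87.9 and 104.6 CPM against 118.0, 134.1, 135.0 and 142.1 CPM. Every Y library lay below every Xist library in both genes, with log2 differences of -0.54 (edgeR adjusted p = 0.0165) and -0.56 (adjusted p = 0.0322). Leaving out single libraries gave 1 to 8 called members, and Psmd8 passed each time. The count was lowest, at 1 (2.44%), without CYR61 replicate 2, where 8.16% of all genes were called. It was 2 without CYR61 replicate 1, 3 or 4 (4.76% to 4.88%, against 9.18% to 11.2% of all genes) and 4 without control replicate 2 or 4 (9.52%, against 12.1% and 10.2%). With the date stamp as a further term it was 5 (11.9%), against 8.62% of all genes. Psmd8, Psme2 and Psmd12 passed in that fit, with log2 differences of 0.78, 0.98 and -0.55, and Psme1, Psmb1, Psmb6 and Psmc5 did not (edgeR adjusted p = 0.0877 to 0.166). Of all 42 members, Psmb6 and Psmd8 had every Y library above every Xist library (4.76%, against 9.12% of all genes tested). Psma4, Psmc1, Psmc5, Psmd12 and Psmd6 had every Y library below (11.9%, against 10.5%).

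**Figure D5:**
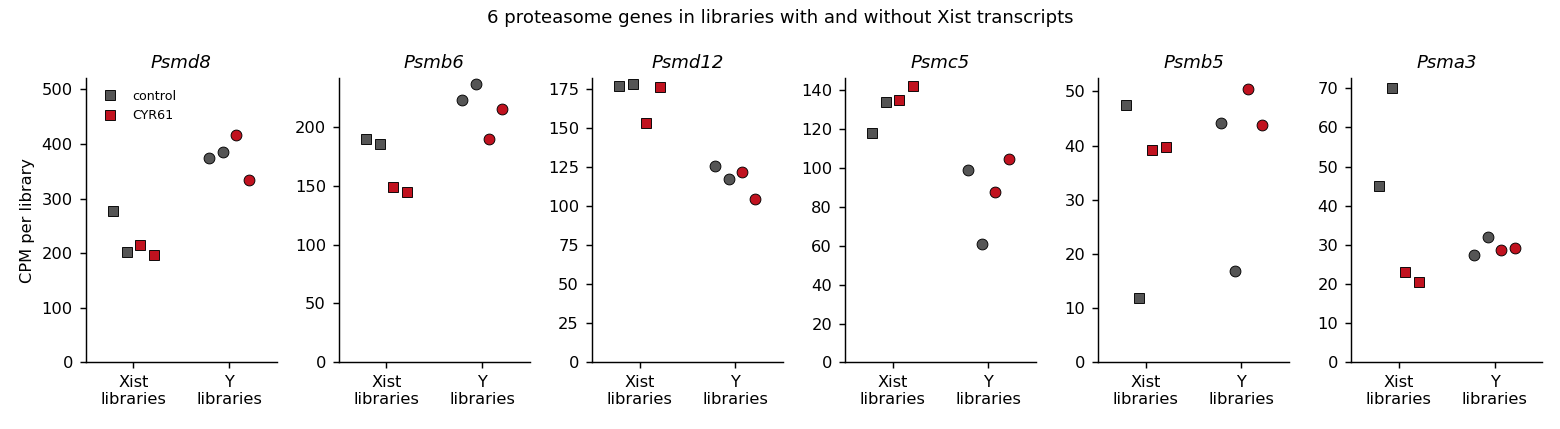
CPM of 6 genes in the 4 Xist libraries (squares) and the 4 Y libraries (circles), with CYR61 libraries in red and control libraries in grey; y axes start at 0 and differ between panels. Psmd8 and Psmb6 lie higher in Y libraries, Psmd12 and Psmc5 lower, the lowest Psmb5 points are control replicates 3 and 4, and the highest Psma3 point is control replicate 3.

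The CYR61 effect on single genes was also set out by split. Of the 37 genes with subunit names other than PA28 alpha and beta, 25 had a higher mean in CYR61 than in control libraries among Y libraries, 12 did among Xist libraries, and 16 did in Y but were lower in Xist libraries. These counts are descriptions over 2 libraries a group, and their difference was not tested. They compare mean CPM without TMM factors, and the same share over all genes was not counted. In edgeR fits with TMM factors, a different measure, 47.7% of all genes tested lay above 0 in Y and 51.8% in Xist libraries. Since the CYR61 libraries of a split are also those of 1 date stamp, split and stamp cannot be told apart in them.

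The spread between libraries of a group differed widely from gene to gene. The coefficient of variation of a gene with a subunit name over 4 libraries was 7.34% to 60.8% in control (median 22.8%) and 5.68% to 52.0% in CYR61 libraries (median 14.5%). The highest library exceeded the lowest by 1.23 to 6.7 times (median 1.9). In the library where each gene had fewest UMIs, not always the same library, 15 of 42 members had 50 or fewer.

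Start regions were matched by symbol for 35 of the 42 members. Searched on both strands, the ETS motif CCGGAAG was found in 14 of 35 (40.0%), where 9.93% of 27025 genes and 23.1% of the genes tested here hold it. The interferon-stimulated response element, read as a pair of GAAA spaced by any 2 bases, was found in 4 (Psmb3, Psmd4, Psmd9 and Psme1; 11.4%), where 3.99% of genes hold it. In Psme1 the match begins 10 bases after the start site, and reads GAAA on the strand opposite to the one printed. The antioxidant response element core TGACNNNGC was found in 6 (Psmb5, Psmb6, Psmc6, Psmd12, Psmd9 and Psme4; 17.1%), where 17.4% of the genes tested and 12.4% of all 32851 windows hold it. The interferon-gamma motif TTCNNNGAA was found in 1 (Psmd2), where 9.55% of genes hold it, and CCAAT in 14 (40.0%), where 41.1% do. Of the other 3 genes with the interferon element, none had an unadjusted p under 0.05 for CYR61, and Psme2 had no match in its window. A match describes letters in a window and says nothing of a factor bound there.

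Over the 8 libraries, the genes whose log2 CPM followed that of Psme1 most closely among 10422 tested were Npc2, Shisa5, H2-T22, Mndal and B2m (Pearson r = 0.967 to 0.997). For Psme2 they were Stard3, Mon1b, Rnf31, Sp110 and Eci2 (r = 0.969 to 0.975). B2m encodes the light chain of MHC class I. These correlations are descriptions over libraries that differ in group, depth and the Xist and Y split.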

How the data were processed

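Single-cell RNA was measured in 8 libraries, and the authors deposited UMI counts per gene and cell barcode, raw whole numbers for 5000 barcodes of 12 bases per library. The submitters' processing notes name the build mm10. No label names an aligner, counter, strand setting or gene annotation (not given in the sources used here). Groups and replicate numbers came from the labels.

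Barcodes with at least 300 genes and at most 20% mitochondrial UMIs were kept (12848). Each was used only in the library of its date stamp with most UMIs (9196). The date stamps are those in the deposited files' names. No doublet caller was run. Results of 1 marker list are not reported here. Counts were summed per library (842528 to 13933610 UMIs) and tested with edgeR 4.0.16 in R 4.3.3 (TMM factors, filterByExpr, quasi-likelihood test, Benjamini-Hochberg over all genes). All 8 libraries entered, with group as the only term. Contrasts between cells of a library used sums per library and class with the library as a block. CPM are UMIs scaled by the library's total over the cells used, without TMM factors. DESeq2 1.42.0, other normalizations, filters, cell rules, batch terms and left-out libraries were alternatives. Scripts were tested on simulated data. Replicate numbers were checked for pairing: deviations of same-numbered libraries correlated at -0.20, 0.32, -0.09 and 0.31, so the numbers were not taken to pair libraries. Coordinates are from GENCODE M21 (GRCm38) and promoter windows from RefSeq (GRCm38.p6). Protein sequences were not used here.

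Members, lists and tests were chosen with earlier results of these data known. Named genes were members called in any comparison, the 5 with the smallest p in each direction for CYR61, Psme1 to Psme4, the cutting subunits, Psmd14, Psmd11, Psmc1, Psma7, and, of the related list, the inducible subunits, Pomp, Nfe2l1 and any called. Psma8, Psmc3, Psmd2, Psmg1, Psmg3, Psmg4, Psme2b, Nfe2l2 and the genes listed by overlap or motif were named after their values were seen. Summed counts of pseudogene copies were small (4 to 52 UMIs), but reads shared between copies could be split.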

Additional observations from a re-analysis of the deposited data

Results flagged for a closer look

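In 2 of 78 groups of 4 libraries 1 library stood farther from the others than Dixon's criterion allows, and chance alone gives about 1 in 20. Psmd2, which encodes a large scaffold subunit of the base, was at 167.1 CPM in CYR61 replicate 3 and at 117.4 to 122.1 CPM in the other CYR61 libraries. The summed level of the lid and the non-ATPase base was 1711 CPM in the same library and 1400 to 1432 CPM in the others. That library also held the largest share of neutrophil-marker cells, 9.22%, and the part of these cells in the values was not tested.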

How the results depend on the processing

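The count of called members for CYR61 was 0 under every alternative run except 4. It was 2 of 42 (4.76%; Psme1 and Psme2) with no filter on low counts, with a term for Xist against Y libraries, and with terms for both that split and the date stamp, where 0.781%, 2.22% and 2.75% of all genes were called. In the Y libraries alone it was 1 (Psme1; 2.38%, against 1.85%). Leaving out single libraries gave 0 each time, where 0.795% to 1.2% of all genes were called. With the replicate block, the replicate number as a term, the count was 0, where 1.07% of all genes were called. Psme1 and Psme2 lay above 0 under all 24 alternatives, from 0.50 to 0.94 and from 0.50 to 1.58 on the log2 scale. The date interaction gave 0 members with all kept cells too, where 0% of all genes were called. For mitotic cells the count was 2 (5.13%) with library totals alone, which moved the median of all genes to 0.12, and 2 with cells of at least 500 UMIs, where 11.1% and 8.76% of all genes were called. It was 1 to 3 when single libraries were left out, with 2 (4.88%, against 13.2%) without control replicate 1 and 3 (7.14%, against 16.4%) without control replicate 2. Psmc3ip was called each time. The others were Psmc3 with library totals alone and Psmd8 with cells of at least 500 UMIs. Without control replicate 1 Psmd8 was called as well, and without control replicate 2 Psmb6 and Psmd8. For high against low interferon share the count was 0 to 1 when single libraries were left out, the 1 being Psme1 (2.38%, against 4.59%) without CYR61 replicate 3. For Y against Xist libraries it was 1 to 8 when single libraries were left out (2.44% to 19.5%, against 8.16% to 17.8%). It was 10 with DESeq2 (23.8%, against 20.7%) and 9 with all kept cells (21.4%, against 25.1%). With no filter on low counts it was 6 (14.3%, against 5.45%), and with library totals alone 5 (11.9%, against 14.9%). Without neutrophil-marker cells it was 8, where 15.5% of all genes were called.

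Uncalled log2 fold changes for CYR61 that crossed 0 were these. In the earlier stamp alone they were -0.09 for Psmb5, -0.17 for Psmd14, 0.13 for Psmc1, -0.041 for Psma7 and 0.46 for Psmc3ip. In the later stamp alone they were 0.029 for Psmd11 and -0.11 for Pomp. In the Xist libraries alone they were -0.27 for Psmd14, 0.066 for Psmc1 and -0.15 for Psma7. In the Y libraries alone they were 0.09 for Psmb7, 0.004 for Psma3, 0.14 for Psmc3ip, 0.092 for Psmd9 and -0.064 for Nfe2l1. With no filter on low counts Psmb7 was at 0.025 and Psmc1 at 0.12, where the median of all genes was 0.09. Without neutrophil-marker cells Psmc1 was at 0.008. Over single libraries left out, Psmb7 ranged from -0.19 to 0.032, Psmd14 from -0.044 to 0.32, Psmc1 from -0.072 to 0.08 and Pomp from -0.017 to 0.22. The causes were not tested. Depth limits the low genes most: 15 of 42 members had 50 or fewer UMIs in the library where each had fewest.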
